A study of Mus musculus with 2 samples.

Results

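Areg or Klrg1 effector regulatory T cells were gated from the single-cell transcriptomes of tumour-infiltrating lymphocytes: 697 of 21021 cells, 292 from the library labelled WT and 405 from that labelled Dapl1-KO. The members were chosen by measured UMI counts: each had at least 1 unique molecular identifier (UMI, a tag that marks each captured RNA molecule) of Foxp3, at least 1 of Cd3d, Cd3e or Cd3g, none of Cd8a, Cd8b1 or Mki67, and at least 1 of Areg or Klrg1. Both libraries held CD45+CD90.2+ cells (haematopoietic cells bearing the T lineage antigen Thy1) sorted from tumours of C57BL/6 mice, and were made with 10x Genomics Single Cell 3' v3 chemistry. The WT label is wild type, and the Dapl1-KO label is a genotype deficient in Dapl1; the labels give no age, tumour line or number of pooled animals, and no other allele or agent. The series asks how expression differs between wild-type and Dapl1-deficient T cells in tumours. With 1 library per label there is no replicate, so no test was possible, and every interval covers counting error only.

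Regulatory T cells restrain immune responses and depend on the transcription factor Foxp3. In tissues and tumours some of them take an activated, effector form, which is known for the inhibitory receptor Klrg1, for the cytokine interleukin 10 (Il10), and for amphiregulin (Areg), a ligand of the epidermal growth factor receptor that takes part in tissue repair. Effector forms are also known to lose the machinery of lymphoid recirculation, such as Klf2 and its target S1pr1, and to use costimulatory receptors of the tumour necrosis factor receptor family. On GRCm38, Areg lies on chromosome 5 at 91139599 to 91148432 on the plus strand, and Klrg1 on chromosome 6 at 122270596 to 122282882 on the minus strand. Foxp3 lies on chromosome X at 7573644 to 7595245 and Il10 on chromosome 1 at 131019845 to 131024974, both on the plus strand.

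The libraries stood apart in ways that bear on every comparison between them. The targeted gene Dapl1 had 15 counts in the members labelled WT and 5 in those labelled Dapl1-KO, all 5 in 1 cell; the labels do not say which part of the gene was deleted, so these 3' counts check the label only in part, and the text keeps to "the library labelled". Of the deposited barcodes, 13132 occurred in both libraries, and of such a pair only a copy with 2 or more times as many UMIs was kept. After that rule 276 of 292 members labelled WT (94.5%) and 267 of 405 labelled Dapl1-KO (65.9%) still carried a barcode found in the other library, whose copy there held a median of 26.6% and 10.8% as many UMIs. Xist or Tsix without Y-linked RNA was found in 260 members labelled WT and in 0 of the 405 labelled Dapl1-KO; Y-linked RNA without Xist or Tsix was found in 8 and 251. Sex-linked RNA and genotype label therefore cannot be told apart. Depth was close: members held 2452510 and 3467909 UMIs in all, with medians of 6877 and 7123 per cell, and kept cells overall had medians of 7895 and 9191.

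As a group, the cells matched the Treg part of their label. Treg markers that the gate did not use (Il2ra, Ikzf2, Ctla4, Tnfrsf18, Tnfrsf4, Nrp1, Izumo1r, Gpr83 and Lrrc32) summed to 5451 CPM (counts scaled to the same total in each group of cells) in the members labelled WT and 6124 CPM in those labelled Dapl1-KO, against 792 and 942 CPM in gated CD8 T cells. In non-cycling Tregs with neither Areg nor Klrg1 they summed to 3825 and 4707 CPM. Gpr83 was at 0 in the members labelled Dapl1-KO. Il10, the other marker of the effector form, had a UMI in 44.9% (exact 95% binomial interval 39.1 to 50.8) and 31.1% (26.6 to 35.9) of members. Of the Tregs with neither gene, 35.4% (28.9 to 42.4) and 25.9% (19.8 to 32.9) had an Il10 UMI. Foxp3 had a UMI in 4.41% and 4.02% of T cells with Cd8a and Cd8b1 and without Cd4, a type that should largely lack it, at medians of 13128 and 15029 UMIs. Cells with macrophage markers and no Cd3 gene, 24 and 56 in number at medians of 11722 and 9673 UMIs, had Areg in 3 and 3 cells (12.5%, 2.66 to 32.4, and 5.36%, 1.12 to 14.9) and Klrg1 in 0 and 1. These shares are taken here as the background of free RNA; with so few macrophage cells the limits on Areg and Klrg1 are wide. Cd4 had a UMI in 63.7% and 63.0% of members.

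Markers of other cell types were present at low levels. Macrophage markers (8 of 8 detected, among them Lyz2, C1qa and Apoe) summed to 316 CPM in members labelled WT and 156 CPM in those labelled Dapl1-KO. NK markers (6 of 6) summed to 118 and 135 CPM, and gamma-delta T markers (4 of 4) to 35.9 and 30.0 CPM. Innate lymphoid type 2 markers were carried by Gata3, which Tregs also express, with Hs3st1 at 0 in both libraries. B cell markers summed to 6.12 and 8.94 CPM, with Ms4a1 at 0 in both, and melanocytic markers to 6.93 and 13.6 CPM. Several genes that led the comparison of libraries came from few cells, and they are set apart where they arise.

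A larger share of gated regulatory T cells carried Areg or Klrg1 where the label was Dapl1-KO. Of the non-cycling Foxp3+ cells, 292 of 498 labelled WT (58.6%, exact binomial interval 54.2 to 63.0) and 405 of 590 labelled Dapl1-KO (68.6%, 64.7 to 72.4) were members. The difference was 10.0 percentage points (95% interval 4.15 to 15.8, combined from the exact limits of both shares). All gated regulatory T cells, cycling ones included, made up 6.97% of kept cells labelled WT and 7.02% of those labelled Dapl1-KO. With every cell thinned to 3000 UMIs the shares were 46.3% and 55.7%. When all cells with a barcode in both libraries were left out, only 16 of 48 cells (33.3%) and 138 of 249 cells (55.4%) were members, a difference of 22.1 points with an interval of 5.71 to 36.5.

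Both genes were found in a larger share of the non-cycling Tregs labelled Dapl1-KO. Areg had a UMI in 39.0% (34.6 to 43.4) of non-cycling Tregs labelled WT and 50.5% (46.4 to 54.6) of those labelled Dapl1-KO, and Klrg1 in 36.9% (32.7 to 41.4) and 42.7% (38.7 to 46.8). Whether the genes differed in this was not tested. In the other gated T cells Areg was found in 4.02% and 10.1% of CD8 T cells, 12.3% and 17.0% of Foxp3-negative CD4 T cells, and 43.2% and 52.8% of cycling Tregs, WT before Dapl1-KO. Klrg1 was found in 4.99% and 7.58%, 7.71% and 10.3%, and 54.2% and 46.6% of the same groups, so cycling Tregs had the lower Klrg1 share where the label was Dapl1-KO. In the T cells with Cd8a and Cd8b1 and without Cd4, whose depth is given above, Areg had a UMI in 8.41% (7.54 to 9.35) and 18.4% (17.3 to 19.5) of cells, higher with the Dapl1-KO label, whereas in the few macrophage-marker cells above it was lower. The part of free Areg RNA in the Treg difference was not tested.

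Areg and Klrg1 overlapped in part. Among the members labelled WT, 108 had Areg alone, 98 had Klrg1 alone and 86 had both; among those labelled Dapl1-KO, the numbers were 153, 107 and 145. Klrg1 was found in 44.3% of Tregs with Areg and 32.2% of those without in the WT library, and in 48.7% and 36.6% in the Dapl1-KO library. The cells with both genes were also the deepest, with medians of 8058 and 7856 UMIs against 5984 and 6529 for Areg alone, so depth moved with the overlap and its part was not tested. Cycling Tregs, set apart by Mki67 and sequenced to medians of 17484 and 17316 UMIs, carried either gene in 71.6% and 72.5% of cells.

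**Figure D1:**
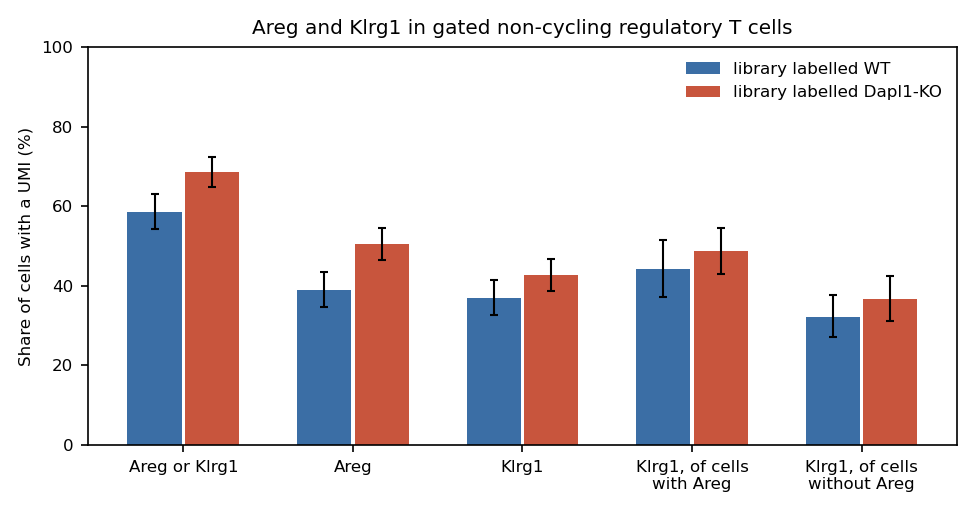
Bars give the share (%) of gated cells with at least 1 UMI of the gene named under each pair, for non-cycling regulatory T cells of the library labelled WT (blue) and Dapl1-KO (red); error bars are exact 95% binomial intervals. The share with Areg or Klrg1 was 58.6% and 68.6%, and Klrg1 was more frequent among cells with Areg than among those without in both libraries.

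The values that chose the members were as follows, as a description. Areg ranged up to 111 UMIs per member labelled WT and 255 per member labelled Dapl1-KO, with a median of 4 and 5 among positive cells, whereas Klrg1 had a median of 2 in both and did not exceed 16. Foxp3 stood at exactly 1 UMI in 111 and 145 members, and its summed level was 291 and 292 CPM. Areg summed to 699 and 969 CPM and Klrg1 to 195 and 231 CPM. Just inside the threshold, 78 and 70 members had 1 UMI of Areg and Klrg1 together; just outside it, 206 and 185 gated Tregs had 0.

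Tnfrsf4 and Ctla4 stepped up between the cells just outside and just inside the gate. Tnfrsf4 (OX40, a costimulatory receptor) measured 1031 CPM at 0 UMIs, 1425 at 1, 1559 at 2 to 4 and 1782 at 5 or more with the WT label, and 1271, 1883, 1661 and 2088 CPM with the Dapl1-KO label. Ctla4, the inhibitory receptor that Tregs use to strip costimulatory ligands, went from 972 to 1355, 1513 and 1549 CPM, and from 1194 to 1466, 1401 and 1630.3 CPM. Il10 had no such order: 123, 162, 158 and 152 CPM, and 89.2, 95.6, 71.4 and 77.0 CPM. The cells with 0 UMIs were shallower, with medians of 5763 and 5634 UMIs against 7690 and 7645 at 5 or more. They also held the largest barcodes, of up to 137904 and 80740 UMIs, against at most 33747 and 37419 among members. Such barcodes weigh heavily in a summed level, and their part in the steps was not tested.

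**Figure D2:**
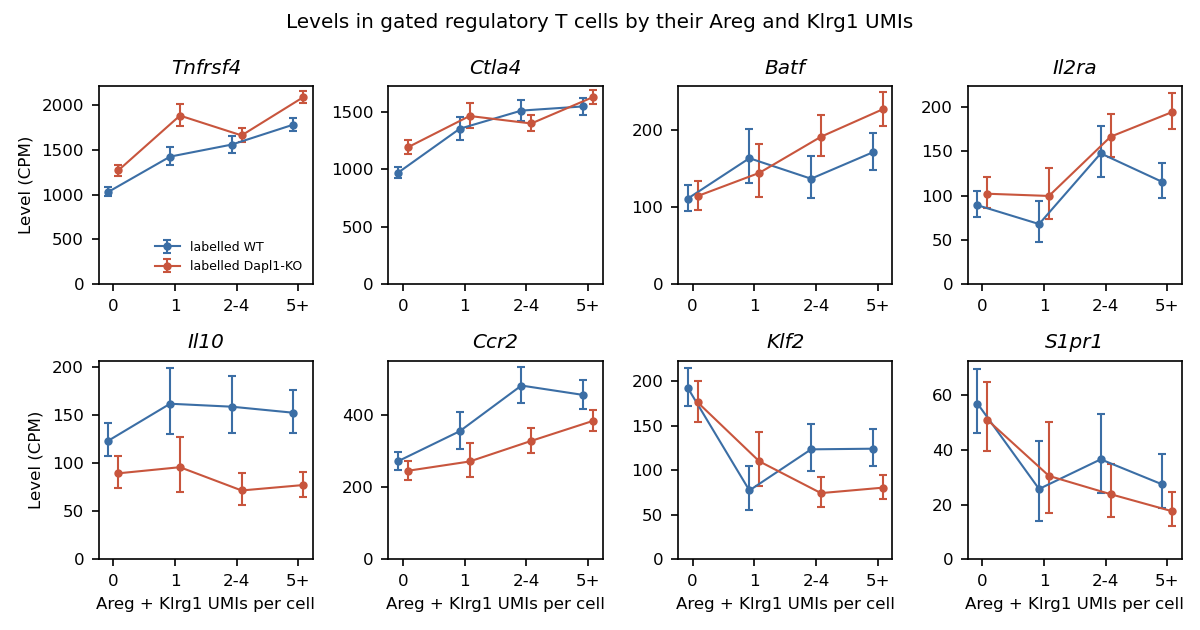
Summed level (CPM) of 8 genes in non-cycling gated regulatory T cells, by the number of Areg and Klrg1 UMIs per cell, in the library labelled WT (blue) and Dapl1-KO (red); error bars are exact 95% Poisson intervals. Tnfrsf4 and Ctla4 were lowest, and Klf2 and S1pr1 highest, in cells with 0 UMIs in both libraries.

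Compared with the non-cycling Tregs that had neither gene, members had at least 1.5-fold more Tnfrsf4 and at least 1.5-fold less Klf2 and S1pr1 in both libraries, and Batf and Ccr2 were past that mark in 1 library each. Of 2323 genes at 50 CPM or more, 8 were at least 1.5-fold higher in both libraries (0.344%) and 22 at least 1.5-fold lower (0.947%); the medians of all these genes on the log2 scale were 0.03 and 0.01. Tnfrsf4 was at 1636 CPM in members and 1031 CPM in the others labelled WT (log2 ratio 0.67, counting interval 0.58 to 0.75), and at 1924 and 1271 CPM in those labelled Dapl1-KO (0.60, 0.52 to 0.68). Batf, a transcription factor needed for effector Treg differentiation, had log2 ratios of 0.52 and 0.83, under 1.5-fold with the WT label, and the chemokine receptor Ccr2 of 0.70 and 0.51, under it with the Dapl1-KO label. At a depth of 3000 UMIs, the share of cells expected to hold a Ccr2 UMI was 59.4% and 47.6% of members against 43.2% and 34.3% of the others, and that of Batf 33.6% and 35.4% against 24.8% and 24.2%. With 2 or more Foxp3 UMIs required, the ratio of Tnfrsf4 was 0.45 and 0.33, under the mark.

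The remaining genes ranked highest by the library nearer to 0 were few and modest. Bcl2l1, the anti-apoptotic protein Bcl-xL, had log2 ratios of 0.65 and 0.71, with 59.1 and 67.2 CPM in members against 37.6 and 41.2 CPM. Sv2c, a synaptic vesicle glycoprotein, measured 250.4 and 202 CPM in members against 135 and 130.4 CPM (0.89 and 0.64). Jdp2 (an AP-1 repressor), Spin1, Lmnb1 (lamin B1), Dctpp1, Igtp (an interferon-induced GTPase), Ncf4 and Hilpda (a hypoxia-induced lipid droplet protein) lay between 0.50 and 0.71 in both libraries. Bcl2l1 and Jdp2 reached 50 CPM only in the members, as did Spin1 and Dctpp1 with the Dapl1-KO label, so Bcl2l1 and Jdp2 had to differ to be counted. Of the 8 genes past 1.5-fold, 2 (Dctpp1 and Sv2c) stayed past it in both libraries when cells with markers of another lineage were left out, when each gene's highest cell was left out, and when every cell had the same weight. In the cells labelled Dapl1-KO without a shared barcode, Tnfrsf4 had a ratio of 0.49, Ccr2 of 0.59, Batf of 0.30 and Dctpp1 of 0.08.

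The genes of the activated Treg form stood higher as a list, below the 1.5-fold mark. Of 20 listed effector Treg genes, 14 were measured and 0 passed 1.5-fold in both libraries in either direction; their median log2 ratios were 0.44 and 0.22. Prdm1 (Blimp-1, which drives terminal effector differentiation) had ratios of 0.43 and 0.73, Gata3 of 0.47 and 0.59, and Tnfrsf9 (4-1BB) of 0.57 and 0.32. Of 18 listed Treg identity genes, Foxp3 included, 12 others were measured and 1, Tnfrsf4, was higher, with medians of 0.34 and 0.23. Of all 2323 measured genes, 0.344% were higher in both libraries. Il2ra (CD25) had ratios of 0.36 and 0.75, Ctla4 of 0.62 and 0.36, and Ikzf2 (Helios) of 0.36 and 0.25. With 2 or more Foxp3 UMIs required, Ctla4 was at 0.35 and 0.11 and Ikzf2 at 0.10 and -0.04, and with equal weight per cell Ctla4 was at 0.37 and 0.20. Il10 did not follow them, with ratios of 0.34 (0.09 to 0.60) and -0.20 (-0.51 to 0.13).

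Of 17 genes of resting or central T cells, 6 were measured and 2, Klf2 and S1pr1, were lower in both libraries, with list medians of -0.46 and -0.44. Of all 2323 measured genes, 0.947% were lower in both libraries. Klf2, the transcription factor that maintains lymphoid homing, was at 113 and 82.5 CPM in members against 192 and 176 CPM in the others (-0.76 and -1.09). S1pr1, the receptor for exit from lymph nodes, was at 29.8 and 21.3 CPM against 57.0 and 51.1 CPM (-0.94 and -1.26). S1pr1 reached 50 CPM only in the cells with neither gene, so it had to differ to be counted, and its ratio with the WT label was -0.01 when 2 or more Foxp3 UMIs were required. Unlike Klf2, S1pr1 was not counted as lower in both libraries in every one of the other-lineage, highest-cell and equal-weight settings. At 3000 UMIs, Klf2 was expected in 18.5% and 14.9% of members against 24.5% and 20.03% of the others, and S1pr1 in 7.83% and 5.31% against 14.3% and 12.4%. The Klf2 ratio changed sign when the gate required 2 or more Foxp3 UMIs, to 0.23 and 0.40, and was -1.93 in the cells labelled Dapl1-KO without a shared barcode.

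Melanocyte genes led the ranking of genes lower in members, and few cells held them. Melanocytic markers summed to 990.2 and 502 CPM in Tregs with neither gene, where 0.971% and 1.62% of cells had 2 or more of them, against 6.93 and 13.6 CPM in members. Syt4, Ptgds, Pmel, Dct, Tyrp1, Cd63 and Gpnmb were among the 12 genes with the lowest ratios, and so were Gzmc and Ccl4. With cells carrying markers of another lineage left out, 7 genes were at least 1.5-fold lower in both libraries, and with each gene's highest cell left out, 6. Klf2 and the inducible heat shock gene Hspa1b (219 and 86.5 CPM against 416 and 205 CPM) were past 1.5-fold in each of these settings and with every cell given the same weight.

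Within the members, cells with Areg alone and cells with Klrg1 alone differed in few genes. Of 2299 genes, 12 were at least 1.5-fold higher with Areg alone in both libraries (0.522%) and 9 were lower (0.391%), with medians of all genes of -0.02 and -0.01 on the log2 scale. Ccr7, the lymph node homing receptor, was at 240.4 and 147 CPM with Areg alone and 94.2 and 38.4 CPM with Klrg1 alone (log2 ratio 1.35, 0.96 to 1.76, and 1.94, 1.41 to 2.50). At 3000 UMIs, Ccr7 was expected in 19.4% and 19.3% of cells with Areg alone, and in 14.6% and 4.80% of cells with Klrg1 alone. Its ratio was 0.58 in the cells labelled Dapl1-KO without a shared barcode.

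The other genes higher with Areg alone had smaller ratios. Dut (dUTPase, of nucleotide metabolism) measured 143 and 159 CPM against 77.2 and 95.3 CPM, with log2 ratios of 0.89 and 0.74. Nme1 (nucleoside diphosphate kinase), Ranbp1 (nuclear transport), Nop58 and Nhp2 (small nucleolar ribonucleoproteins), Hmgn1, Hat1, Rcc2 and Snhg1 had ratios between 0.63 and 1.30. Of the 12, 4 (Ccr7, Dut, Snhg1 and the heat shock gene Hspa1a) stayed past 1.5-fold in both libraries without cells of other lineage markers, without each gene's highest cell, and with equal weight per cell. Hspa1a changed sign in the library labelled WT, to -1.11, when 2 or more Foxp3 UMIs were required. Il17a, the cytokine interleukin 17A, was among the 12 through 5 and 7 members with a UMI, of which 1 in each library held 63.6% and 68.5% of the counts. Il1rl1, the receptor for interleukin 33, an alarmin known to induce Areg in Tregs, had 34 and 53 counts with Areg alone and 13 and 6 with Klrg1 alone, too few to pass the 50 CPM filter.

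Cells with Klrg1 alone had more of Unc119 (a lipid-binding trafficking protein of T cell receptor signalling), at 140.1 and 101 CPM against 83.6 and 63.0 CPM (log2 ratio -0.74 and -0.68). Unc119 was the gene lower with Areg alone that stayed past 1.5-fold in the 3 settings named above. Jdp2 (-1.07 and -0.86) and Cxcr3, a type 1 chemokine receptor (-0.57 and -0.68), lay in the same direction. Il10 was level between the subsets, at 149 and 75.1 CPM with Areg alone and 154 and 76.7 CPM with Klrg1 alone, and was lower in the library labelled Dapl1-KO in either subset. Gzmb was at 661 and 615 CPM with Areg alone and 881 and 870.2 CPM with Klrg1 alone, and Ctla4 at 1342 and 1371 against 1645 and 1750.3 CPM, both under 1.5-fold. The interferon-stimulated gene Isg15 had 130 counts in the cells labelled Dapl1-KO with Klrg1 alone, at 143 CPM, and stood between 37.2 and 56.3 CPM in the other 3 subsets.

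Between the libraries, the members labelled Dapl1-KO had less Il10, less of the glucocorticoid-induced gene Fkbp5 and less RNA of 6 heat shock genes, and more of the killer-cell genes Prf1, Nkg7, Cst7 and Serpinb9 and the interferon-response genes Psmb9, Isg15 and Ifi203. Most measured Treg identity genes were within 1.5-fold. Of 2490 genes at 50 CPM or more, 53 were at least 1.5-fold higher in the members labelled Dapl1-KO (2.13%) and 87 at least 1.5-fold lower (3.49%), and the median of all was -0.03 on the log2 scale. Median-of-ratios scaling moved that median to 0.04 and the counts to 74 higher and 61 lower, so the balance of directions depends on the scaling. Among the 53 and 87, 14 and 39 genes were past 1.5-fold in all 9 settings of cells, gate, scaling and weighting that gave values for this comparison. Of the genes described below, Prf1, Serpinb9, Nkg7, Penk, Psmb9 and Ifi203 were among the 14, as were the sex-linked Ddx3y and Eif2s3y. Il10, Fkbp5, Tsc22d3, Txnip, Hspa1a, Hspa1b, Dnajb1, Hspd1, Hsph1, Rgs1, Gpr55, Npm3, Hist1h2ap, N4bp2l1, S1pr4, Ptger4, Stat5b and Xist were among the 39. Isg15, Cst7, Gbp4, Cxcr6, Havcr2, Hilpda, Il2ra, Nt5e, Tff1, Dusp2 and Hsp90aa1 were past it in the main setting and not in every other. Of the 53 and 87, 27 and 50 reached 50 CPM only in the library where they were higher and so had to differ to be counted: of those named below, Prf1, Cxcr6, Serpinb9, Isg15, Gbp4, Havcr2 and Il1rn on one side, and Fkbp5, Hsph1, Ptger4, Tff1, Gpr55, Stat5b and N4bp2l1 on the other.

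Il10, a secreted suppressor of inflammation, was lower in the members labelled Dapl1-KO. It had 383 counts (156 CPM) in the members labelled WT and 270 counts (77.9 CPM) in those labelled Dapl1-KO, 2.01-fold lower in the latter (log2 ratio between -1.23 and -0.78 by its counting interval). At 3000 UMIs, 29.7% and 19.0% of members were expected to hold an Il10 UMI. The ratio was -0.47 in Tregs with neither gene (123 and 89.2 CPM), -0.75 in cycling Tregs and -0.84 in CD8 T cells, and 0.80 in Foxp3-negative CD4 T cells. Over 9 alternatives it ranged from -1.04 to -0.89 in the members.

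Most Treg identity genes were within 1.5-fold between the libraries. Of the 18 Treg identity genes, 13 besides Foxp3 were measured, 1 was higher (Il2ra) and 1 lower (Nt5e) in the library labelled Dapl1-KO, with a median log2 ratio of 0.16. Of all genes measured in the members, 2.13% were higher and 3.49% lower. Ctla4 was at 1495 and 1535 CPM (0.04), Tnfrsf4 at 1636 and 1924 CPM (0.23), Ikzf2 at 871 and 1030.0 CPM (0.24), Tnfrsf18 (GITR) at 995 and 1115 CPM (0.16) and Icos at 705 and 580.5 CPM (-0.28). Il2ra, the high-affinity interleukin 2 receptor chain, was at 115 and 172 CPM (0.59, 0.38 to 0.80), and its ratio was 0.51 with all deposited barcodes kept and 0.55 with doublets removed, under the mark. Nt5e (CD73, which makes adenosine) was at 93.8 and 60.8 CPM (-0.62, -0.90 to -0.35). None of the 14 measured effector Treg genes passed 1.5-fold in either direction, with a median of -0.08: Batf had a ratio of 0.36, Prdm1 of -0.09 and Gata3 of -0.24.

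Genes of the tissue-repair Treg form went both ways. Of 18 listed genes 11 were measured, 3 higher (Penk, Cxcr6 and Cd74) and 2 lower (Tff1 and Ptger4) in the library labelled Dapl1-KO, with a median of -0.24. Cxcr6, Tff1 and Ptger4 reached 50 CPM only in the library where they were higher, so they had to differ to be counted. Over all measured genes, 2.13% were higher and 3.49% lower. Penk, which encodes the enkephalin precursor, was at 73.4 and 190.0 CPM (1.37, 1.13 to 1.62), with a UMI expected in 9.19% and 17.4% of members at 3000 UMIs. Cxcr6, a receptor of tissue retention, was at 21.2 and 53.3 CPM (1.33, 0.88 to 1.80). Ptger4, a prostaglandin E2 receptor, was at 53.8 and 29.4 CPM (-0.87), and Tff1, a trefoil factor, at 63.6 and 39.2 CPM (-0.70). Cd74 belongs with the class II genes described below. Rora was at 404 and 301 CPM (-0.43), under the mark.

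Of 21 listed cytotoxic and killer-cell genes, 9 were measured, and 4 of them were higher in the members labelled Dapl1-KO (Prf1, Nkg7, Cst7 and Serpinb9) and 0 lower. The other 5 were within 1.5-fold and the list's median was 0.09. Prf1 and Serpinb9 reached 50 CPM only with the Dapl1-KO label, so they had to differ to be counted. Over all measured genes, 2.13% were higher. Prf1 (perforin) had 50 and 206 counts, at 20.4 and 59.4 CPM, 2.91-fold higher (log2 ratio 1.54, 1.09 to 2.02). Nkg7, a granule membrane protein, was at 739.7 and 1329 CPM (0.85), and was expected in 59.1% and 74.8% of members at 3000 UMIs. Serpinb9, the inhibitor of granzyme B, was at 37.1 and 77.0 CPM (1.05), and Cst7 (cystatin F) at 157 and 246 CPM (0.65). Gzmb itself was at 896 and 774 CPM (-0.21). NK markers summed to 118 and 135 CPM in the members, and 3.08% and 3.46% of members had 2 or more of them; with cells of other lineage markers left out, the ratio of Prf1 was 1.78. Nkg7 was also higher in CD8 T cells (0.69) and in Tregs with neither gene (1.05). Prf1 was expected in 18.0% and 30.7% of CD8 T cells at 3000 UMIs, Cst7 in 26.1% and 41.5%, and Serpinb9 in 22.2% and 29.3%. In Tregs with neither gene 11 of the list were measured, 3 higher and 0 lower, against 3.23% of all genes higher. In Foxp3-negative CD4 T cells 11 were measured, 7 higher and 1 lower, against 5.2% and 2.35% of all genes.

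Some interferon-response genes were higher in the members labelled Dapl1-KO, and most that were measured were within 1.5-fold. Of 30 listed type 1 interferon genes 8 were measured, 3 higher, Isg15 and Ifi203 among them, and 0 lower, with a median of 0.47. Ifi203, an interferon-inducible gene of the DNA-sensing family, was at 92.2 and 147 CPM (0.68, 0.45 to 0.91). Isg15, a ubiquitin-like modifier, was at 49.3 and 74.4 CPM (0.59, 0.28 to 0.92), with a UMI expected in 7.85% and 13.9% of members at 3000 UMIs; its ratio was 0.30 when 2 or more Foxp3 UMIs were required. Of 24 listed genes of class I antigen presentation and the interferon gamma response, 18 were measured and 2 were higher, Psmb9 and Gbp4, with 16 within 1.5-fold and a median of 0.18. Isg15 and Gbp4 reached 50 CPM only with the Dapl1-KO label, so they had to differ to be counted. Over all measured genes, 2.13% were higher. Psmb9, an immunoproteasome subunit, was at 230.0 and 402 CPM (0.81, 0.66 to 0.95). Psmb9 had ratios of 0.75 in CD8 T cells, 0.57 in Foxp3-negative CD4 T cells and 0.76 in Tregs with neither gene.

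Among receptors of chemokines and homing, 16 of 25 were measured, 2 were higher, Cxcr6 among them, and 1 lower (S1pr4), with a median of -0.03. S1pr4 was at 112 and 64.6 CPM (-0.79), Ccr2 at 440.4 and 349 CPM (-0.33) and Ccr8, which marks tumour Tregs, at 74.2 and 53.3 CPM (-0.48). Of the checkpoint receptors 4 of 10 were measured and 1 was higher: Havcr2 (TIM-3), at 43.2 and 68.9 CPM (0.67, 0.34 to 1.02). Cxcr6 and Havcr2 reached 50 CPM only with the Dapl1-KO label, so they had to differ to be counted. Of all genes measured in the members, 2.13% were higher and 3.49% lower. Hilpda, from the list of glycolysis and hypoxia genes, was higher alone among 17 measured, at 595 and 909 CPM (0.61). Its ratio was under the mark with all deposited barcodes kept (0.52), with doublets removed (0.54) and with equal weight per cell (0.56).

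**Figure D3:**
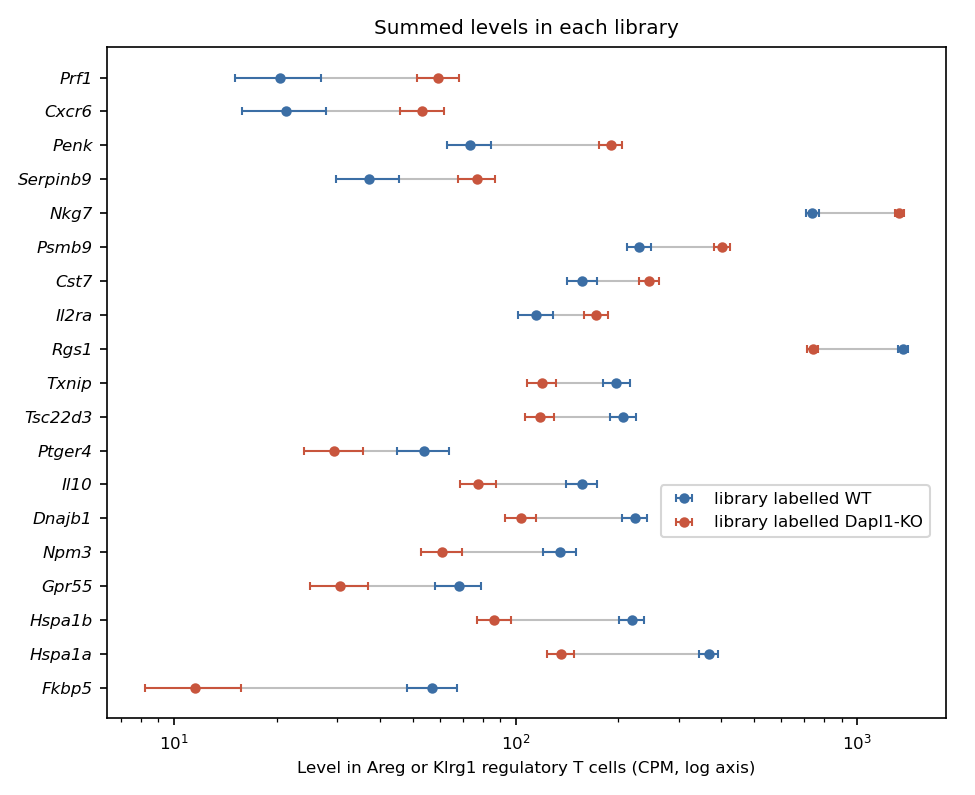
Summed level (CPM, log axis) of 19 genes in the Areg or Klrg1 regulatory T cells of the library labelled WT (blue) and Dapl1-KO (red), joined by a grey line; error bars are exact 95% Poisson intervals. Fkbp5 was at 57.1 and 11.5 CPM and Prf1 at 20.4 and 59.4 CPM. All genes drawn were past 1.5-fold between the libraries, so intervals that did not overlap describe this choice of genes.

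Among the ranked genes, which leave out sex-linked and unnamed genes, Fkbp5 had the lowest ratio of the members after Apoe. This co-chaperone of the glucocorticoid receptor, itself induced by glucocorticoids, had 140 counts (57.1 CPM) in the members labelled WT and 40 counts (11.5 CPM) in those labelled Dapl1-KO, 4.95-fold lower (log2 ratio -2.31, -2.85 to -1.79). At 3000 UMIs it was expected in 16.3% and 3.05% of members. Its ratio was -1.92 in Tregs with neither gene, -1.01 in cycling Tregs, -1.56 in Foxp3-negative CD4 T cells and -1.45 in CD8 T cells. Tsc22d3 (GILZ), another glucocorticoid-induced gene, was at 207 and 118 CPM (-0.81), and Txnip, an inhibitor of thioredoxin, at 197 and 119 CPM (-0.73).

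Of 14 listed heat shock genes 11 were measured in the members, 0 were higher and 6 lower in the library labelled Dapl1-KO (Hspa1a, Hspa1b, Dnajb1, Hsph1, Hspd1 and Hsp90aa1), with a median of -0.61. Hsph1 reached 50 CPM only with the WT label, so it had to differ to be counted. Over all measured genes, 3.49% were lower. Hspa1a, an inducible Hsp70, was at 367 and 136 CPM (-1.44, -1.60 to -1.27), and its co-chaperone Dnajb1 at 223 and 104 CPM (-1.11, -1.30 to -0.91). The constitutive Hspa8 was at 1241 and 1149 CPM (-0.11). Among the members labelled Dapl1-KO, 1 cell held 25.5% of the Hspa1a counts. Hspa1a and Dnajb1 were lower in CD8 T cells too, by log2 ratios of -2.53 and -1.63. In Tregs with neither gene 3 of 11 were lower (Hspa1a, Hspa1b and Dnajb1) and 1, Hsp90aa1, was higher, with a median of -0.01.

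Rgs1, Gpr55 and Npm3 were lower in the members and near level in CD8 T cells, where Gpr55 was scarce. Rgs1, a regulator of G protein signalling linked to retention of T cells in tissue, was at 1360.2 and 741 CPM (-0.88, -0.95 to -0.80), with a ratio of -0.64 in Tregs with neither gene, -0.65 in cycling Tregs, -0.04 in CD8 T cells and 0.08 in Foxp3-negative CD4 T cells. Gpr55, a lipid-sensing receptor, was at 68.1 and 30.6 CPM (-1.16), against 0.08 in CD8 T cells, and the nucleoplasmin family gene Npm3 at 135 and 60.8 CPM (-1.15), against -0.05. Dusp2, a phosphatase of the MAP kinases, was at 363 and 234 CPM (-0.63), and Stat5b, which relays interleukin 2 signals, at 56.7 and 35.5 CPM (-0.68). The replication-dependent histone gene Hist1h2ap was at 186 and 75.3 CPM (-1.30) and N4bp2l1 at 61.6 and 26.5 CPM (-1.21). The difference of these ratios between cell groups was not tested. For these other groups, the shares of genes past 1.5-fold were 3.23% higher and 6.46% lower in Tregs with neither gene, 2.32% and 4.03% in cycling Tregs, 5.20% and 2.35% in Foxp3-negative CD4 T cells, and 6.11% and 2.32% in CD8 T cells.

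**Figure D4:**
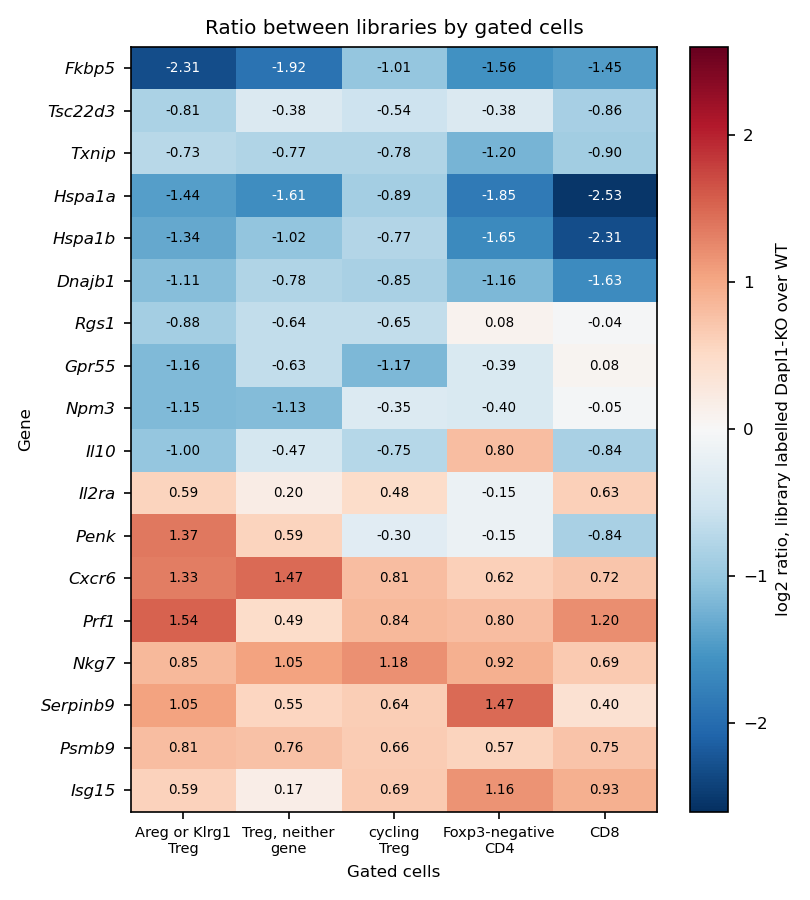
Each tile gives the log2 ratio of the summed level (CPM) in the library labelled Dapl1-KO over that labelled WT, for 18 genes (rows) in 5 gated groups of T cells (columns); red is higher and blue lower in the library labelled Dapl1-KO. Fkbp5, Hspa1a, Hspa1b and Dnajb1 were lower in every column, whereas Rgs1, Gpr55 and Npm3 were lower in the Treg columns and near 0 in CD8 T cells.

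The ranked genes with the highest ratios, sex-linked and unnamed genes left out, were mostly held by few cells. Of the 12 highest, 10 had 20% or more of their counts in 1 cell: Mgp 100%, Cxcl9 81.8%, Ccl3 70.7%, Saa3 64.3%, Ifitm1 43.3%, Ccl9 34.3%, H2-Ab1 30.5%, Spp1 30.1%, H2-Aa 26.6% and H2-Eb1 23.7%. Macrophage, stromal and class II genes are among them. The exceptions were Prf1 and Il1rn, the interleukin 1 receptor antagonist, with 44 and 210 counts and 14.3% in the highest cell. Of the 12 lowest, Cxcl1 (62.1%), Apoe (60.4%), Thbs1 (53.9%) and Cd14 (28.2%) were of this kind. All 4 measured class II genes were higher in the members labelled Dapl1-KO, against 2.13% of all measured genes. H2-Aa and H2-Eb1 reached 50 CPM only with that label, so they had to differ to be counted. In the 2 libraries, 3.42% and 4.94% of members carried 2 or more macrophage markers. Their part in the class II values was not tested.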

How the data were processed

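The deposited values are UMI counts per gene and barcode, 1 matrix per library, with 32285 genes, 16673 barcodes and 154408101 UMIs in the library labelled WT and 19662 and 206322042 in that labelled Dapl1-KO. The authors made them with Cell Ranger 5.0.0 on mm10 (GRCm38), per the submitters' processing notes; filters before deposit are not given in the sources used here. All values were whole.

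Of a barcode in both libraries, only a copy with 2 or more times as many UMIs was kept; cells needed 500 or more genes and at most 10% mitochondrial UMIs, leaving 9865 and 11156. Counts were summed over gated cells and divided by total UMIs (CPM). Genes at 50 CPM or more in 1 of the groups compared counted as measured, and as higher or lower past 1.5-fold. A count of 0 was set to 3 counts for a fold. Intervals are 95%: exact Poisson or binomial (for ratios, conditional). For a difference of shares, the exact binomial limits of each share were combined by Newcombe's formula, in place of its Wilson limits. Shares at 3000 UMIs are the exact mean over all random thinnings of each cell (hypergeometric), leaving out 19 and 26 shallower members; the share of members among thinned Tregs and the thinned counts are from 1 draw. The fold rule and intervals were checked on simulated counts. Scrublet, through scanpy 1.11.5, called 0 doublets by its automatic threshold, so doublets were not removed; an alternative removed the top scores at 0.8% per 1000 cells. Python 3.11.15, numpy 2.4.6, pandas 2.3.3, scipy 1.17.1 and matplotlib 3.10.9 were used. Gene positions come from GENCODE.

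The named genes are the 12 highest and 12 lowest ratios of a comparison (for comparisons made in both libraries, by the ratio nearer to 0), leaving out gate genes, receptor segments, mitochondrial, ribosomal, haemoglobin, sex-linked and unnamed genes, plus members of 25 gene lists, those past the fold first. The members and lists were chosen with earlier results of these data known. Alternatives varied the shared barcodes, cell filter, doublets, gate, scaling, weighting, depth and low-value filter; leaving out cells with markers of another lineage and leaving out each gene's highest cell were chosen after seeing the data. Results on some genes are not reported here.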

Additional observations from a re-analysis of the deposited data

Results flagged for a closer look

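The class II genes went opposite ways in the libraries when members were set against Tregs with neither gene. Over 4 measured genes the median log2 ratio was -0.85 in the library labelled WT and 2.94 in that labelled Dapl1-KO. Among members labelled Dapl1-KO, 1 cell held 30.5% of H2-Ab1, 26.6% of H2-Aa and 23.7% of H2-Eb1 counts. Dapl1-KO over WT, the class II median was 2.15 in members and -1.74 in Tregs with neither gene. In the latter, 3 measured macrophage markers had a median of -3.56. The part of few cells and of each group in the opposite directions was not tested.

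The smaller copies of barcodes found in both libraries, which entered no comparison, held cells that pass the same gate: 50 in the library labelled WT and 128 in that labelled Dapl1-KO. Of these copies 4% in the library labelled WT and 89.8% in that labelled Dapl1-KO had Xist, and their medians were 2013 and 2518 UMIs over all copies left out.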

How the results depend on the processing

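With 1 library per label, no value has a replicate, and genes under 50 CPM rest on too few counts for a ratio. No paired analysis was possible because each label has 1 library. The difference in the share of members was 22.1 points with every shared barcode left out; under the other 7 alternatives it lay between 5.68 and 13.9 points. The counts of genes past 1.5-fold moved most with the filter on low values. At 20 CPM, 139 genes were higher and 278 lower in the members labelled Dapl1-KO, 28 and 68 against Tregs with neither gene, and 58 and 48 for Areg alone against Klrg1 alone. With no filter these were 2152 and 3154, 287 and 1395, and 468 and 676. With all deposited barcodes kept, 52 genes were lower in the members labelled Dapl1-KO, 2 were higher against neither, and 15 were lower for Areg alone. The count higher against neither (8) was 3 under the stricter cell filter, 13 under median-of-ratios scaling, 5 without cells of other lineage markers and 13 without each gene's highest cell. The count lower (22) was 12 under the stricter cell filter, 7 with 2 or more Foxp3 UMIs, 10 after thinning, 7 without cells of other lineage markers and 6 without each gene's highest cell. For Areg alone, 28 were higher and 19 lower with 2 or more UMIs of Areg or Klrg1, 19 and 23 with 2 or more Foxp3 UMIs, and 22 and 18 without cells of other lineage markers; 15 were lower with equal weight per cell. Requiring 2 or more Foxp3 UMIs turned the direction of Klf2 against neither (0.23 and 0.40) and of Hspa1a for Areg alone in the library labelled WT (-1.11); no other gene past 1.5-fold whose ratio the text gives turned under any alternative run. Causes were not tested. Gene values between libraries were not run for Y-linked cells (8 members labelled WT) or without shared barcodes (16), under the minimum of 20 cells.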

Other observations

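After Fkbp5 was seen, a list of 14 glucocorticoid-induced genes was written; it was chosen after its leading gene was seen. In the members 10 were measured, 0 were higher and 3 lower in the library labelled Dapl1-KO (Fkbp5, Tsc22d3 and Txnip), with a median log2 ratio of -0.46. Of all genes measured in the members, 3.49% were lower. Fkbp5 stays in this count and median, so neither is a check on it. The medians were -0.35 in Tregs with neither gene, where 1 of 8 was lower, -0.42 in cycling Tregs, where 1 of 6 was lower, -0.33 in Foxp3-negative CD4 T cells, where 1 of 10 was higher and 3 were lower, and -0.66 in CD8 T cells, where 4 of 8 were lower. In the same order of groups, 6.46%, 4.03%, 2.35% and 2.32% of all measured genes were lower. In Foxp3-negative CD4 T cells 5.2% were higher. Klf9, a further member of this list that was under the filter, had 55 and 37 counts in the members, at 22.4 and 10.7 CPM.

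The interleukin 7 receptor gene Il7r, typical of resting and memory T cells, was at 357 and 249 CPM in the members, and Ly6a at 954 and 1375 CPM; both stood under 1.5-fold. Lgals1, the most abundant of these at 2165 and 2900 CPM, was likewise under the mark.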
